A study of Rattus norvegicus with 24 samples.

Results

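The RNA compared here came from rats given saline, and the comparison set 4 parts of the telencephalon against the midbrain and the hypothalamus. Each two-colour array of the study carried saline RNA in 1 dye and MK-801 RNA in the other, and the 24 saline channels of 48 channels were taken. Of these, 16 channels held telencephalic RNA (cerebral cortex, hippocampus, amygdala and ventral striatum, with 4 channels each) and 8 held RNA of the midbrain or the hypothalamus, with 4 channels each. A region was represented by the mean of its channels, so the comparison is of 4 region means with 2. A gene was named where every region of one side lay above every region of the other and the difference passed the test. The animals were male Wistar rats, 10 weeks old, of no stated genetic modification. The 3 saline rats were injected into the abdomen, like the 6 rats given MK-801 at 0.08 or 0.16 mg per kg, and brains were removed after 40 min. MK-801 (dizocilpine) enters and plugs NMDA receptor channels, which glutamate opens. No label names the animal behind a channel or tells whether animals were combined. The 4 channels of a region were therefore treated as measurements of the same tissue, and the spread between them may be technical. The p-values reflect only how regions differed within the same few animals. That spread joins differences of tissue and of slide, and it does not measure how animals differ.

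The telencephalon is the most anterior division of the vertebrate brain, and it holds the cortex, the hippocampus, most of the amygdala and the striatum. Its projection neurons carry dense dendritic spines, in which calcium, calmodulin and a web of scaffold proteins link glutamate receptors to the cytoskeleton. The midbrain and the hypothalamus hold dopamine neurons, neuroendocrine cells and many long myelinated fibre tracts, and their glutamatergic neurons mostly load vesicles with another transporter than those of the cortex. In pieces of tissue, fewer cells of a type and less RNA per cell cannot be told apart.

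Signal levels are log2 values of the scanner's processed intensity after quantile normalization over the 24 channels, and a difference of 1 on this scale is a doubling. Levels were compared between regions for 1 probe, never between probes. Between 55.4% and 89.3% of the probes of a saline channel were well above background, with at most 8 saturated spots, and a typical saline spot was brighter than its background by a factor (median of each channel) of 1.82 to 2.92 with Cy3 and 3.81 to 5.77 with Cy5. The number of arrays limits the precision. Each region lay on a slide of its own, and 2 regions were scanned on each of 3 days: midbrain with amygdala, ventral striatum with cerebral cortex, and hippocampus with hypothalamus. Region and slide cannot be told apart. Across the 24960 genes tested, which are not independent replicates, the region means correlated at r = 0.957 for amygdala and midbrain and r = 0.961 for hippocampus and hypothalamus, the pairs of opposite sides that shared a scan day. The other pairs of opposite sides lay between r = 0.941 and r = 0.953, pairs within the telencephalon between r = 0.955 and r = 0.972, and midbrain with hypothalamus at r = 0.967. The part of the shared scan day in these values was not tested.

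Genes of the dendritic spine and of potassium channels were among those that led the telencephalic side, and the dopamine transporter gene Slc6a3 and the homeobox genes Shox2, Irx2 and Lhx1 were among those that led the other side. Of 24960 genes and transcripts tested, 172 (0.689%) differed at a Benjamini-Hochberg adjusted p under 0.05 with limma. Of the 172, 52 passed the filter on dim probes only through the side where they were higher, so they could be called in 1 direction only. They were 107 genes higher in the telencephalon (0.429%), 50 of them with a gene symbol, and 65 genes higher in midbrain and hypothalamus (0.260%), 36 of them with a symbol. All 172 also had every region of one side above every region of the other, a pattern that 2498 genes (10.0%) showed with the telencephalon higher and 3173 genes (12.7%) with midbrain and hypothalamus higher. The called genes had a median difference of 2.75 in the telencephalic direction and -3.06 in the other, where the median size over all genes was 0.30. Their median SD over the 4 telencephalic regions was 0.35, close to the 0.36 of all genes. At the threshold, Chct1, Nrtn and Pxylp1 lay just inside with an adjusted p of 0.0478, and Tmem117 (0.0519), Dio3 (0.0525) and Chrm4 (0.0530) just outside. With scan day as a block no gene was called (0, with 3751 at an unadjusted p under 0.05 against 3287 without the block), and leaving out 1 region gave between 38 and 141 called genes. An exact permutation test of 4 regions against 2 could not give a two-sided p below 0.133, so none was used.

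Of the 12 telencephalic genes with the widest gap between the lowest telencephalic region and the higher of midbrain and hypothalamus, 11 are described by role. Itpka, a neuronal kinase of inositol trisphosphate that also bundles actin in spines, (probe at chr3:106162493-106162552 of rn3) had levels of 14.31 to 15.53 over the 16 telencephalic channels (median 14.96) and 7.89 to 10.07 over the 8 others (median 8.93). The groups were apart by more than 4 units, and the difference was 5.91 ± 0.45 (SE, n = 4 and 2 regions, adjusted p = 0.0065 with limma). Ddn encodes dendrin, a protein of dendritic spines. Its level was 12.30 in cortex, 13.00 in hippocampus, 13.06 in amygdala and 12.10 in ventral striatum against 6.09 in midbrain and 8.53 in hypothalamus, a difference of 5.31 ± 0.66. Baiap2, an insulin receptor substrate that shapes the actin of spines, was 13.69, 13.69, 13.64 and 14.15 in the same order against 10.27 and 10.24. Its difference was 3.54 ± 0.25 (adjusted p = 0.00497), and another probe for it gave 3.41.

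Ion channels and enzymes made up much of the rest. Kcnh3, a potassium channel of the ether-a-go-go family, ranged from 10.63 to 12.18 over telencephalic channels and from 5.26 to 6.66 over the others, with a difference of 5.20 ± 0.36. Kcnv1, a modifying potassium channel subunit, was highest in cortex at 12.94 and lowest in hypothalamus at 6.32, and differed by 5.19 ± 0.48. Crym, a thyroid hormone binding crystallin, was 15.25 to 16.27 in the telencephalic regions against 11.13 in midbrain and 11.54 in hypothalamus. Gda, the guanine deaminase cypin that acts on dendrite branching, differed by 4.24 ± 0.34 and Moxd1, a monooxygenase related to dopamine beta-hydroxylase, by 4.21 ± 0.26. Moxd1 was not well above background on any of the 8 midbrain and hypothalamic channels. Set against the lowest signal that counts as above background, its telencephalic signal was 11.7-fold higher. That figure is not a lower bound, since the alternatives run gave log2 differences down to 1.88. Egr4, an immediate early transcription factor, was 14.35 in cortex and 14.17 in ventral striatum but 12.55 in hippocampus, against at most 9.37 on the other side. Its channels (15 telencephalic and 8 others measured) did not overlap between the sides, as was so for all 24 genes with the widest gaps. Choosing genes by the gap between means of these channels favours such a separation.

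**Figure D1:**
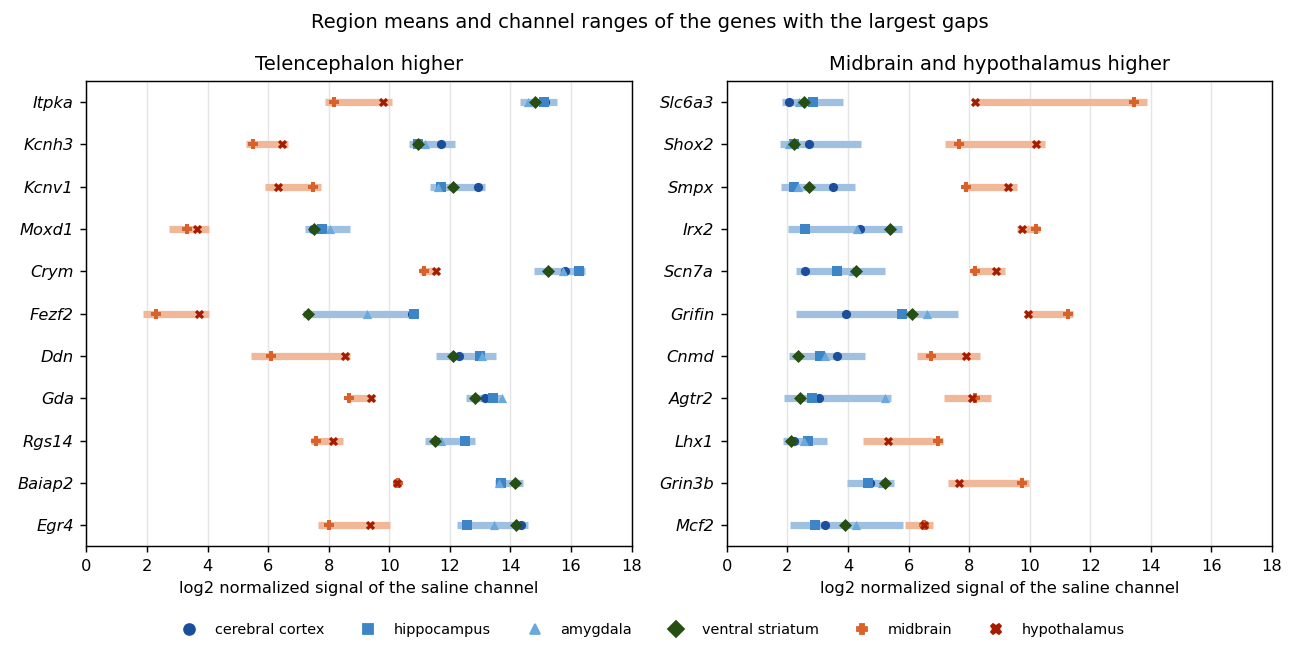
Log2 normalized signal of the saline channel (horizontal axis) for 11 genes of each side, from the 12 with the widest gap between the sides. Symbols are region means, and bars run from the lowest to the highest channel of each side. Blue bars cover 16 telencephalic channels (15 for Egr4 and Gda) and orange bars 8 midbrain and hypothalamic channels. No blue bar overlaps its orange bar, and Slc6a3 has the widest orange bar.

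The list of telencephalic transcription factors held 2 called genes of 27 tested, both higher in the telencephalon. Fezf2, a zinc finger factor of deep-layer cortical projection neurons, was 10.75 in cortex, 10.80 in hippocampus, 9.28 in amygdala and 7.31 in ventral striatum. It was not well above background on any midbrain or hypothalamic channel. Set against the lowest signal that counts as above background, the telencephalic signal was 41.2-fold higher. The alternatives run gave log2 differences down to 3.61, so this is not a lower bound. Of 27 tested members, 14 lay above midbrain and hypothalamus in every telencephalic region, 1 (Lhx9) lay below in every one, and 12 overlapped. Over all genes 10.0% lay above, 12.7% below and 0.429% were called higher in the telencephalon. The median difference was 1.39, against -0.03 over all genes tested, and 6 of the 27 passed the filter on dim probes only through the telencephalon, so they could differ in 1 direction only. Bcl11b (3.91, adjusted p = 0.075) and Neurod2 (4.78, adjusted p = 0.127) lay above the median difference of called genes without passing. For Neurod2 the telencephalic regions ranged from 8.36 in ventral striatum to 12.73 in hippocampus. Dlx1 (0.02), Dlx2 (0.08) and Cux2 (-0.12) overlapped between the sides.

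Sequence upstream of the start site was looked at for the called genes found in RefSeq's promoter table of GRCr8, which held 36 of the telencephalic and 28 of the midbrain and hypothalamic genes. The 250 bases before the start of 2 genes from each side are shown as examples. Fezf2 (chr15:15203943-15204192, plus strand) and Rgs14 (chr17:9268234-9268483, minus strand) are from the telencephalic side. Slc6a3 (chr1:31578963-31579212, minus strand) and Smpx (chrX:41107138-41107387, minus strand) are from the other. Capitals mark the match to CAGATG, an E-box bound by NeuroD factors, in Rgs14 and the match to AGATAA, the motif of GATA factors, in Smpx. Both strands were searched for these motifs and for TGACGTCA, the cAMP response element, which share no match in the sequences shown, and Fezf2 and Slc6a3 hold none of them. Irx2, a leading gene of midbrain and hypothalamus that is not shown, also holds CAGATG, so that match occurs among leading genes of both sides.
Fezf2: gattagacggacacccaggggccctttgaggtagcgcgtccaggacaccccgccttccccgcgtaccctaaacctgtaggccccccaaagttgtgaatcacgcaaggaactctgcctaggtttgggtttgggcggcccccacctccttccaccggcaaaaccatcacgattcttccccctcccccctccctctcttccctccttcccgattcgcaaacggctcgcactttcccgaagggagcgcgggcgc
Rgs14: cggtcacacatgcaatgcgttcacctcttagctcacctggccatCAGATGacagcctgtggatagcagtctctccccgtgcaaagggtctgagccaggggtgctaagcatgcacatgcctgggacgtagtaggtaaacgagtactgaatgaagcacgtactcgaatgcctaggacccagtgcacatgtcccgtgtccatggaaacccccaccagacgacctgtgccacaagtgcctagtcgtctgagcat
Slc6a3: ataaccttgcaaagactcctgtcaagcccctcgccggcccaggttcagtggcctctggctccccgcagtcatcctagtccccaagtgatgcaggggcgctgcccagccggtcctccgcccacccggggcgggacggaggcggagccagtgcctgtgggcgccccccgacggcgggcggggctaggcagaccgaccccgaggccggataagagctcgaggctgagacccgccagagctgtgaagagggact
Smpx: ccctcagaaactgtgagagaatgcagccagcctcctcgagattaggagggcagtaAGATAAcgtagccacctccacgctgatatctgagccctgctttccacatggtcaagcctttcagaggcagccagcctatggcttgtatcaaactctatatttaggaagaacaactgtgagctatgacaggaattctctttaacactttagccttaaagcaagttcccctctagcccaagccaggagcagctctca
The letters CAGATG were in 9 of 36 telencephalic promoters (25.0%) and 1 of 28 of the other side (3.57%), against 3757 of all 27457 promoters in the table (13.7%). AGATAA was in 0 of 36 and 3 of 28 (10.7%), against 10.1% of all promoters, and TGACGTCA in 0 of 36 and 0 of 28, against 1.70%. Rgs14, a scaffold of G protein and Ras signalling known from hippocampal area CA2, has the CAGATG match, and its level was 12.50 in hippocampus and 11.52 to 11.70 in the other telencephalic regions, against 7.57 in midbrain and 8.16 in hypothalamus. The promoters of both sides were richer in G and C, with medians of 62.0% and 60.6%, than the table as a whole at 52.0%. A match describes letters in this window, not a bound site.

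Genes of postsynaptic calcium signalling, which read calcium entry at the synapse, included 4 of the called telencephalic genes. Of 33 tested, none was called in the other direction, and 19 lay above midbrain and hypothalamus in every telencephalic region while 0 lay below in every one. Over all genes 0.429% were called higher in the telencephalon, 10.0% lay above in every telencephalic region and 12.7% below. The median difference was 1.26, and 1 of the 33 passed the filter only through the telencephalon. Besides Itpka, the called genes were Nrgn, Pde1a and Hpcal4. Nrgn encodes neurogranin, which holds calmodulin in spines until calcium rises, and was 15.31 in cortex, 14.99 in hippocampus, 14.46 in amygdala and 14.96 in ventral striatum, against 12.04 in midbrain and 10.79 in hypothalamus (difference 3.51 ± 0.40, adjusted p = 0.0207). Pde1a, a phosphodiesterase switched on by calcium and calmodulin, differed by 3.25 ± 0.50, and Hpcal4, a calcium sensor, by 2.75 ± 0.41. Camk2a, the alpha subunit of calcium/calmodulin kinase II, was 11.40 to 12.48 in the telencephalon, 6.88 in midbrain and 10.13 in hypothalamus. Its difference of 3.39 ± 0.83 did not pass (adjusted p = 0.138), and the gap between midbrain and hypothalamus was about as large. Icam5, a telencephalic cell adhesion molecule, had 4.12 (adjusted p = 0.085). Calmodulin genes differed little between the sides, by 0.30 for Calm2 and -0.14 for Calm3, with no call.

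Postsynaptic scaffold genes included 5 called members of 19, Ddn, Cnksr2, Baiap2, Dlgap2 and Arc, all higher in the telencephalon. In all, 10 members lay above midbrain and hypothalamus in every telencephalic region and 1 (Psd3) below, with a median difference of 1.04, against 10.0% above, 12.7% below and 0.429% called over all genes. Cnksr2, a Ras pathway scaffold, was 11.62, 12.05, 11.11 and 10.84 in cortex, hippocampus, amygdala and ventral striatum against 7.62 and 7.77 (difference 3.71 ± 0.37). Dlgap2, which binds the postsynaptic density protein PSD-95, was highest in ventral striatum at 9.23 and differed by 3.44 ± 0.31. The gene for PSD-95 itself, Dlg4, had 1.04 with no overlap but did not pass (adjusted p = 0.151), and Shank1 (0.27), Shank3 (0.68) and Homer3 (0.05) overlapped between the sides.

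Glutamate receptor genes held 1 call in each direction. Over all genes 0.429% were called higher in the telencephalon and 0.260% in the other direction. Without overlap, 10.0% of all genes lay above and 12.7% below. Among 9 AMPA and kainate receptor subunits, 1 was called, Gria2, which makes AMPA receptors impermeable to calcium. Its level was 12.96 in cortex, 13.02 in hippocampus, 12.56 in amygdala and 13.02 in ventral striatum, against 10.73 in midbrain and 10.78 in hypothalamus, a difference of 2.13 ± 0.24 (adjusted p = 0.0204), and another probe gave 1.91. Gria3 (1.40), Grik5 (1.30) and Grik2 (1.12) also lay above in every telencephalic region without passing, and Gria4 (-0.13), Grik1 (-0.30), Grik3 (-0.01) and Grik4 (-0.40) overlapped. Of 6 NMDA receptor subunits, the target of MK-801, the called one lay in the other direction. Grin3b, a subunit that gives glycine-gated receptors low in calcium permeability, was 4.67 to 5.21 in the telencephalic regions, 9.76 in midbrain and 7.66 in hypothalamus, a difference of -3.78 ± 0.55 (adjusted p = 0.0386). Grin2a (1.99, adjusted p = 0.266) was above in every telencephalic region, whereas Grin1 (0.51), Grin2b (1.32), Grin2c (0.04) and Grin3a (-1.17) overlapped. The 7 metabotropic receptors had a median of 0.10 and the 11 GABA-A receptor subunits one of 0.30, with no call in either list.

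Among 30 potassium channel genes, 3 were called, Kcnh3, Kcnv1 and Kcnj4, all higher in the telencephalon, where 0.429% of all genes were called. Kcnj4, an inward rectifier of spiny neurons, was highest in ventral striatum at 10.51 and lowest in midbrain at 4.84 (difference 4.13 ± 0.55). In this list 8 members lay above in every telencephalic region and 6 below (10.0% and 12.7% of all genes did), the latter led by Kcnc2 (-1.93) and Kcnc1 (-1.78), channels of fast-spiking neurons, so the family had no common direction. Of 16 cholinergic genes, Chrm1, the M1 muscarinic receptor, was called with 2.14 ± 0.29 (adjusted p = 0.0353), but its other probe gave 0.52 and the mean of both was not called. Chrm4, the M4 receptor, had 3.45 (adjusted p = 0.0530). In the same list Chrna3 (-3.46) and Chrna6 (-3.59), nicotinic subunits, and Ache (-2.23), acetylcholinesterase, lay below in every telencephalic region without passing, and 3 of the 16 genes passed the filter only through midbrain or hypothalamus, which fixes their direction.

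Immediate early genes, which neurons switch on with activity, had 2 called members of 19, Egr4 and Arc. Arc, whose protein trims AMPA receptors from synapses, was 13.63 in cortex, 12.39 in hippocampus, 12.19 in amygdala and 12.76 in ventral striatum, against 10.07 in hypothalamus and less in midbrain (difference 3.21 ± 0.48, adjusted p = 0.0437). In all, 10 members lay above in every telencephalic region (10.0% of all genes did, and 0.429% were called) and 0 below, with a median of 1.02. Of the 19, 2 passed the filter only through the telencephalon. Egr2 had the largest value, 5.58, and just missed the threshold (adjusted p = 0.053) with telencephalic regions from 8.02 in hippocampus to 11.43 in cortex. The list was not uniform: Fos (-0.20), Fosb (-0.17), Jun (0.32) and Ier2 (0.04) overlapped between the sides. Fos was 9.84 in cortex and 7.71 in hippocampus, with midbrain at 8.47 and hypothalamus at 9.24 in between. In 10 of the 19 genes the highest region was cortex.

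Of 17 genes of GABA synthesis and interneurons, the neuropeptide gene Sst was called, where 0.429% of all genes were called in that direction. It was 14.57 in cortex, 13.91 in hippocampus, 14.30 in amygdala and 14.28 in ventral striatum, against 12.44 in midbrain and 12.08 in hypothalamus (difference 2.00 ± 0.27, adjusted p = 0.0352). Its relative Cort had 4.68 (adjusted p = 0.072). The GABA-synthesizing enzymes Gad1 (-0.37) and Gad2 (0.18) and the vesicular transporter Slc32a1 (-0.36) overlapped. Calb2 (-3.54) and Pvalb (-2.09), calcium-binding proteins of the same list, lay below in every telencephalic region without passing. Of the 17, 6 lay above in every telencephalic region and 2 below, against 10.0% and 12.7% of all genes, so the list had no common direction.

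**Figure D2:**
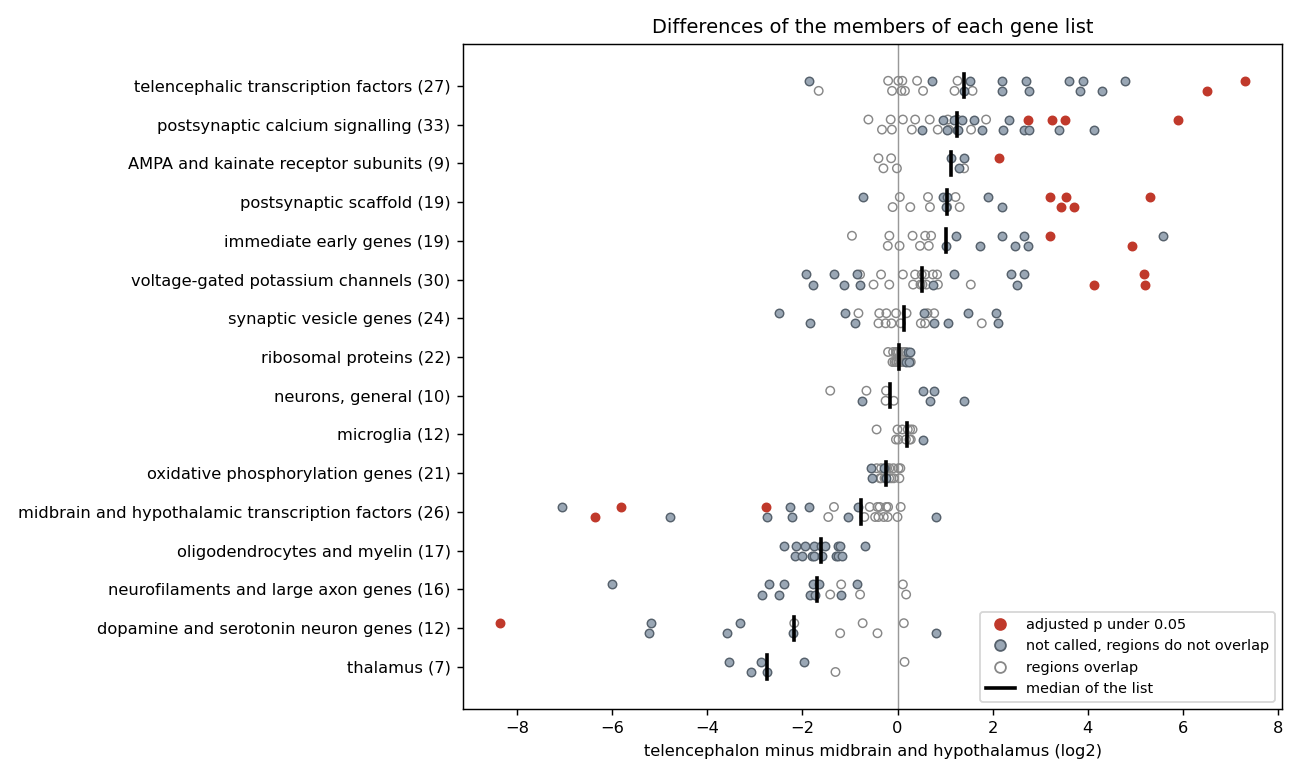
Difference between the telencephalic mean and the mean of midbrain and hypothalamus on the log2 scale (horizontal axis) for the tested members of 16 gene lists, with the number of members in brackets; each point is 1 gene and each black bar the median of a list. Red points passed the test, filled grey points did not although no region overlapped, and open points overlapped; all 17 myelin points are filled grey and left of 0, while ribosomal proteins lie around 0.

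On the side of midbrain and hypothalamus, the gene with the widest gap was Slc6a3, the dopamine transporter (probe at chr1:30518494-30518553 of rn3). It was not well above background on any of the 16 telencephalic channels, held 12.82 to 13.88 over the 4 midbrain channels and 8.08 to 8.34 over the 4 hypothalamic channels. Set against the lowest signal that counts as above background, the mean of both regions was 120-fold higher. That figure is of the mean, does not hold for the hypothalamus alone, and is not a lower bound. The difference between the sides was -8.35 ± 1.23 (adjusted p = 0.042 with limma), and the alternatives run gave differences as small as -5.10. Both regions were above background, but midbrain exceeded hypothalamus by about 5 units. In the MK-801 RNA of the same arrays the midbrain level was 13.67 and the hypothalamic level 3.38, with 1 of 4 hypothalamic channels well above background. The position of the hypothalamus for this gene thus rests on the saline channels. The other genes of the dopamine and serotonin neuron list moved unequally, with the largest falls in Slc18a2 and Th. The hypothalamic level in MK-801 RNA against saline RNA was 7.41 against 8.61 for Th and 6.26 against 7.71 for Slc18a2. It was 12.28 against 12.50 for Ddc, 3.32 against 3.73 for Chrna6, 9.49 against 9.60 for Maob and 5.25 against 5.32 for Gch1. For Ret it was 11.73 in both, and for Pitx3 (6.46 against 6.34), Nr4a2 (8.41 against 8.31), Slc6a4 (4.49 against 4.40) and Tph2 (4.33 against 4.26) it was slightly higher, and none of these differences was tested. Drug, rats and piece of tissue cannot be told apart in these values.

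Other monoamine genes did not pass. Of 12 tested dopamine and serotonin neuron genes, Slc6a3 was the called one, where 0.260% of all genes were called in that direction. With Slc6a3, 6 lay below in every telencephalic region, where 12.7% of all genes did, and the median was -2.18. Of the 12, 3 passed the filter only through midbrain or hypothalamus, so they could differ in 1 direction only. Th, tyrosine hydroxylase, was 13.66 in midbrain and 8.61 in hypothalamus against 5.41 to 6.60 (difference -5.24 ± 1.21, adjusted p = 0.126), and 10 of the 12 were highest in the midbrain. Nr4a2, a factor of dopamine neurons, lay in the other direction, above in every telencephalic region with 0.80. Tph2 (-0.73) and Slc6a4 (-1.21), which mark serotonin neurons, overlapped, since the hypothalamus was at 4.26 and 4.40.

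Homeobox transcription factors were the next group. Irx2 and Irx3, Iroquois factors that pattern tissue behind the telencephalon, differed by -5.82 ± 0.69 (adjusted p = 0.022) and -2.76 ± 0.42 (adjusted p = 0.0437). Irx2 held 10.21 in midbrain and 9.75 in hypothalamus against 2.58 in hippocampus and at most 5.37 in the other telencephalic regions, and was above background on 8 of 16 telencephalic channels. Shox2 was higher in hypothalamus (10.20) than in midbrain (7.67) and not well above background on any telencephalic channel, with another probe at -8.20. Lhx1, a LIM homeobox factor, was likewise not above background in the telencephalon, and above background on 7 of the 8 channels of the other side. Set against the lowest signal that counts as above background, Shox2 was 31.7-fold and Lhx1 4.74-fold higher. These are not lower bounds, since the alternatives run gave differences as small as -4.65 for Shox2 and -1.31 for Lhx1. Of 26 tested members of the list of midbrain and hypothalamic transcription factors, 3 were called, Irx2 and Irx3 among them, 11 lay below in every telencephalic region and 1 (Nr4a2) above, against 0.260% called in that direction, 12.7% below and 10.0% above over all genes. The median was -0.76 and 5 of the 26 passed the filter only through midbrain or hypothalamus. Foxa2, a factor of the ventral midline and of dopamine neurons, had -7.06 (adjusted p = 0.060) with midbrain at 12.08 and hypothalamus at 7.33.

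The remaining leading genes were of varied kinds. Smpx, a small protein known from muscle and inner ear, was 7.91 in midbrain and 9.27 in hypothalamus against 2.22 to 3.50 (difference -5.90 ± 0.49). Scn7a, a sodium channel that senses salt concentration in parts of the brain, was 8.18 and 8.88 against 2.59 to 4.28 (-4.86 ± 0.51). Agtr2, the type 2 angiotensin receptor, held 8.18 and 8.09 against 2.42 to 3.05 in cortex, hippocampus and ventral striatum and 5.23 in amygdala. Grifin, a galectin-related protein, was 11.25 and 9.95 against 3.94 to 6.62, and Cnmd, chondromodulin, 6.73 and 7.88 against 2.36 to 3.65. Mcf2, an exchange factor for small GTPases, had 6.50 and 6.51 against 2.90 to 4.27. For these genes few telencephalic channels were above background (3 of 16 for Smpx and Scn7a, 4 of 16 for Agtr2 and Cnmd, 5 of 16 for Mcf2), except Grifin with 15 of 16, so the low side is dim and the fitted size depends on how background was treated.

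Paired genes of the synapse showed opposite gradients in 3 of 10 pairs, over region means that did not overlap, by narrow gaps for Vamp2 and Syt1. Slc17a6, the vesicular glutamate transporter of subcortical neurons, was 13.60 in midbrain and 14.52 in hypothalamus, against 8.37 in cortex, 9.98 in hippocampus, 10.58 in amygdala and 7.90 in ventral striatum. The difference was -4.86 ± 0.77, with an adjusted p of 0.053. Slc17a7, its cortical counterpart, overlapped (2.70 ± 1.24): ventral striatum (4.75), whose projection neurons release GABA, lay below hypothalamus (6.01). Vamp2 (0.55), Syt1 (0.77) and Cplx2 (2.07) lay above in every telencephalic region, and their relatives Vamp1 (-1.84), Syt2 (-2.50) and Cplx1 (-1.10) below. The gap between the sides was 0.080 for Vamp2 and 0.035 for Syt1. Both are below 0.24, the median SD over the 4 channels of a region for all genes. The genes of these 3 pairs drive the fusion of synaptic vesicles, and none of them was called (adjusted p 0.0829 to 0.466). The 24 synaptic vesicle genes together had a median of 0.13, with 6 above and 4 below in every telencephalic region, against 10.0% and 12.7% of all genes.

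**Figure D3:**
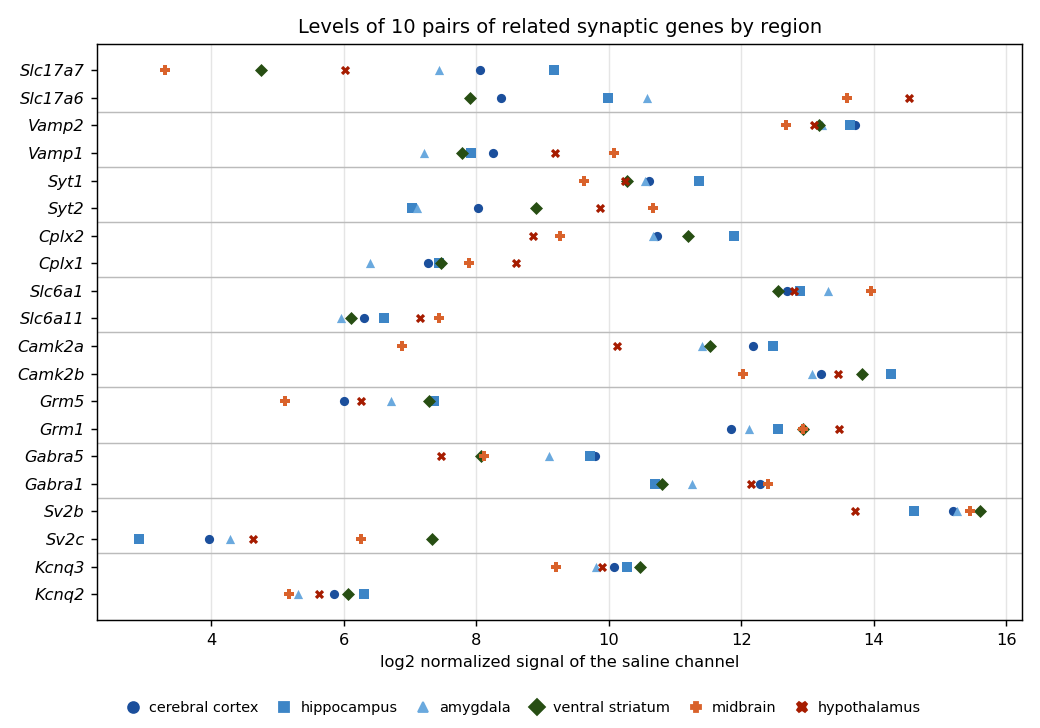
Log2 normalized signal (horizontal axis) of 10 pairs of related genes, with 1 symbol per region mean and grey lines between pairs. Levels may be compared between regions within a row, not between rows; Slc17a6 has midbrain and hypothalamus at the right, whereas Cplx2 has them at the left and Cplx1 at the right.

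Myelin genes lay together on the side of midbrain and hypothalamus, without a single call. All 17 tested oligodendrocyte and myelin genes had midbrain and hypothalamus above every telencephalic region, where 12.7% of all genes did, and all 17 had an unadjusted p under 0.05, where 13.2% of all genes did. None passed adjustment over all genes with limma (adjusted p 0.113 to 0.378). Their median difference was -1.61, and Ugt8, an enzyme of myelin lipid synthesis, had the largest at -2.39. Mbp, myelin basic protein, was 13.08 in cortex, 14.84 in hippocampus, 13.10 in amygdala and 14.66 in ventral striatum, against 15.96 in midbrain and 15.90 in hypothalamus. The telencephalic regions split into a lower pair and a higher pair, with an SD of 0.96 among them, and the difference was -2.01 ± 0.58 (adjusted p = 0.189). Summed over the 17 genes, the normalized signal was 102604 to 220513 in the telencephalic regions, 375475 in midbrain and 340069 in hypothalamus. Within scan days the median over the 17 genes was -2.49 for amygdala minus midbrain and -1.15 for hippocampus minus hypothalamus, a direction that the lack of overlap already fixes. Between 16 and 17 of them kept this order when 1 region or replicate was left out. Leaving out a region cannot undo the order, and leaving out a replicate reuses the other channels.

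Genes of neurofilaments and large axons lay mostly on the same side as myelin. Of 16 tested, 11 lay below in every telencephalic region (12.7% of all genes did) and 0 above, with a median of -1.69 and no call. Nefh, the heavy neurofilament subunit, was 13.33 in midbrain and 12.93 in hypothalamus against 9.19 to 11.29 (-2.71 ± 0.56), and Prph, peripherin, 13.64 and 11.95 against 9.58 to 10.43 (-2.86 ± 0.49). Spp1, osteopontin, which large projection neurons express, had the largest value, -6.01 ± 1.28, with 14.70 in midbrain. Scn4b overlapped, since ventral striatum was highest, and Scn8a (0.18) lay near 0. The summed myelin signal given above was higher in the same regions, and its part in the axon genes was not tested.

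**Figure D4:**
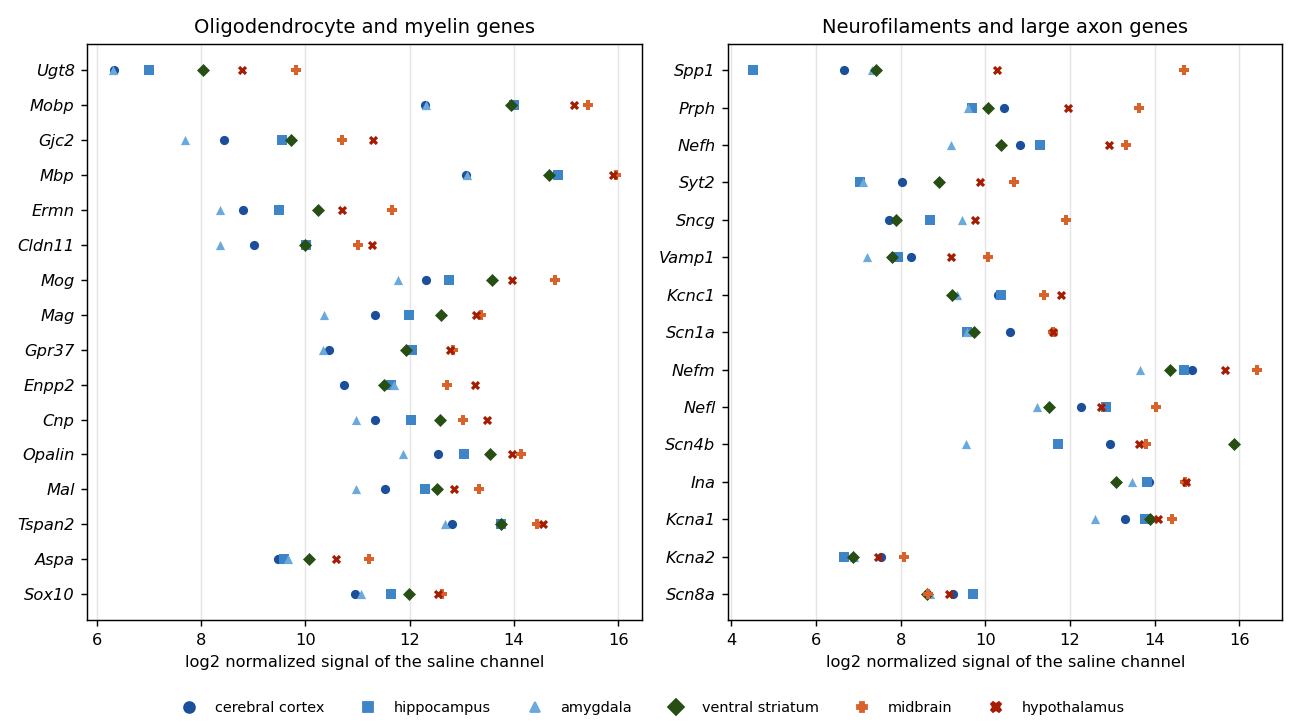
Log2 normalized signal (horizontal axis) of 16 oligodendrocyte and myelin genes and 15 neurofilament and large axon genes, with 1 symbol per region mean. In each of the myelin genes midbrain and hypothalamus are the rightmost symbols, and amygdala or cortex is the leftmost; Scn4b is highest in ventral striatum.

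Markers of other cells and of neighbouring tissue were read beside these results. Over all genes 12.7% lay below and 10.0% above in every telencephalic region, the shares to set beside the counts that follow. Astrocyte genes were listed by origin. Of 7 genes listed for astrocytes outside the telencephalon 5 lay below in every telencephalic region (median -1.05), and of 5 listed for those of the telencephalon 3 lay above (median 0.90), whereas 12 general astrocyte genes had a median of -0.36. Irx2 is a member of the first of these lists too. Microglial genes (12, median 0.20), endothelial genes (11, -0.24) and ribosomal proteins (22, 0.03) had medians near that of all genes and held no call. General neuronal genes (10, -0.16) and genes of oxidative phosphorylation (21, -0.24) held no call either, but their members were not evenly placed. Of the neuronal genes 4 lay above in every telencephalic region and 1 below. Of the oxidative phosphorylation genes 0 lay above and 4 below, and 3 of the 21 had a higher mean in the telencephalon. Thalamic markers had much signal in the hypothalamic piece: 5 of 7 lay below in every telencephalic region, against 12.7% of all genes (median -2.75), and 5 of 7 were highest in hypothalamus. Their summed signal was 3258 to 9602 in the telencephalic regions, 35830 in midbrain and 78576 in hypothalamus, and Prkcd was 15.69 there. Hypothalamic peptide genes set the hypothalamus apart less clearly. Of 17 tested, 3 were highest in hypothalamus, 6 in midbrain and the rest in a telencephalic region. Pmch was 12.76 in hypothalamus against 9.44 in midbrain and 6.97 to 7.77 in the telencephalon. Hcrt (7.56 to 8.24 over all 6 regions), Pomc (9.83 to 10.29) and Agrp (5.82 to 6.80) spanned less than 1 unit. Choroid plexus signal was highest in amygdala, with Ttr at 14.90 there, 13.18 in hypothalamus and 4.80 in cortex, and all 11 meningeal genes were highest in amygdala too. Without the hypothalamus 67 genes were called, 43 of them among the 172, and the part of thalamic tissue in the differences was not tested.

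The MK-801 channels of the same arrays gave RNA of the other 6 rats, measured on the same slides. In that RNA 82 genes (0.330%) were called higher in the telencephalon and 39 (0.157%) higher in midbrain and hypothalamus, of 24824 tested. No overlap was seen in 2276 genes (9.17%) with the telencephalon higher and in 3010 (12.1%) in the other direction. All 107 and 65 genes called in saline RNA kept their direction and their lack of overlap, and 79 of 107 and 36 of 65 were called again. Itpka differed by 6.25 there. The 2 differences that moved the most among named genes were those of Slc6a3, from -8.35 to -6.15 (adjusted p = 0.365), and Cnmd, from -4.23 to -3.38 (adjusted p = 0.247). These channels share slides, probes and dissection with the saline channels, so the rats differ but the arrays do not.

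**Figure D5:**
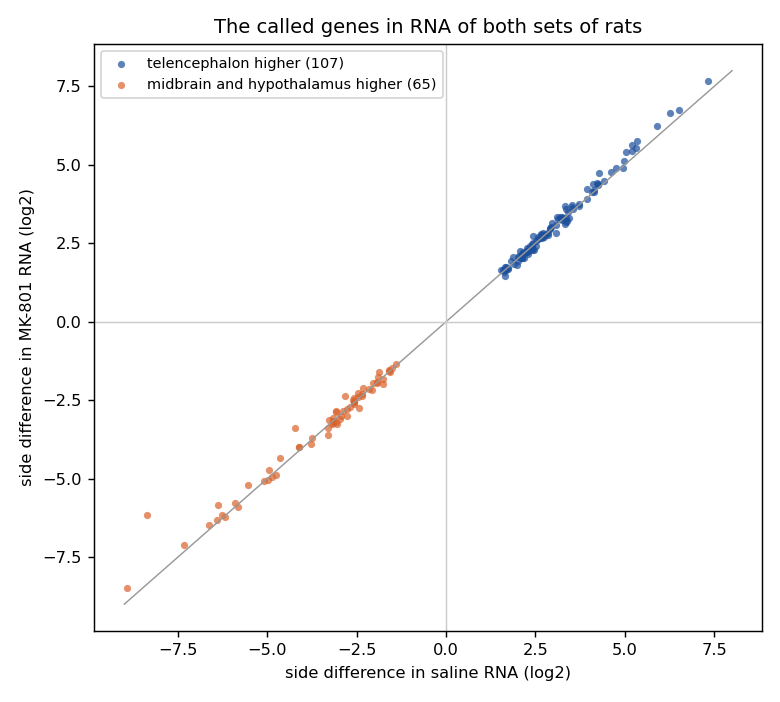
Difference between the sides in RNA of saline rats (horizontal axis) and of MK-801 rats (vertical axis), log2 scale, for the 107 genes called higher in the telencephalon (blue) and the 65 called higher in midbrain and hypothalamus (orange); the grey diagonal marks equal values. Points lie along the diagonal, and the orange point farthest above it is Slc6a3.

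The response to the drug, taken on each array as log2 of MK-801 signal over saline signal, was compared between the sides in the same way. No gene was called at the high dose (0.00% of 23214 tested, 870 at an unadjusted p under 0.05) or at the low dose (0.00% of 23421, 773 at an unadjusted p under 0.05) with limma. For Itpka the ratio differed between the sides by 0.25 at the high and 0.33 at the low dose, small beside its difference in level. Leaving out the hypothalamus gave 181 called genes at the high dose and 23 at the low dose, and leaving out the midbrain 13 and 7, so a difference in response between the sides is not shown to be absent.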

How the data were processed

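Saline RNA of 6 brain regions was measured on 24 two-colour arrays. Per the file headers, the authors deposited fluorescence intensity files from Agilent Feature Extraction 9.5.3.1, named also in the submitters' processing notes. Its processed signals were corrected for spatial and multiplicative trends and dye-normalized, with surrogates for very low signals and no local background subtraction. Control and outlier spots were left out and spots of a probe averaged. The saline signal of each array was put on the log2 scale and quantile-normalized over 24 channels, and a region mean was the mean of its Cy3 and Cy5 means. A probe was kept if well above background on all 4 saline channels of at least 1 region, and a gene took its brightest probe. Names came from RefSeq (GRCr8) for 10726 probes by accession, 5586 by symbol and 3730 by synonym of 41012, and probe positions on rn3 from the files. The deposited log10 ratio of red over green, made by the same software from the processed signals, per the file headers, served as an alternative for the drug response. Sides were compared with limma 3.58.1 (lmFit, eBayes) in R 4.3.3 on 6 region means, with Benjamini-Hochberg adjustment over all genes and a threshold of 0.05. For genes dim on all channels of a side, fold differences were set against the lowest signal well above background on each channel. Where the gene's own signal was higher, that signal was used. Such figures hold for the main processing only. Figures used matplotlib 3.10.9. On simulated data for this comparison, 24960 genes with 100 changed by each size, 34% of genes changed by 1 log2 unit and 99% of those changed by 2 were recovered. Every simulated gene had the same noise, set at the median spread of the real genes. Recovery of genes that vary more between regions was not simulated.

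Genes named are the 12 with the widest gap on each side among called genes with a symbol, called members of the lists (at most 8 a list), and both members of 10 gene pairs; other list members are given by value. The threshold neighbours, and the dopamine neuron genes in MK-801 RNA, were chosen after their values were seen. The members and lists were chosen with earlier results of these data known. Alternatives covered scaling, background correction, filters, probe choice, variance model, scan day, channel-level fits, dyes, and left-out replicates and regions. The deposited value table holds ratios of both colours and was not used here. A few genes that the rule or lists name are not reported here by name; counts and medians include them.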

Additional observations from a re-analysis of the deposited data

Results flagged for a closer look

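Dixon's test was run on the 4 telencephalic region means of 35 named genes, and chance alone flags about 1 in 20 such groups. In 2 genes a region stood apart from the other 3 by a gap above the test's critical value as a share of the range. For Baiap2 the ventral striatum lay above the other regions (14.15 against 13.64 to 13.69, ratio 0.89). For Gria2 the amygdala lay below them (12.56 against 12.96 to 13.02, ratio 0.876). In both genes all 4 regions still lay above midbrain and hypothalamus.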

How the results depend on the processing

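Every one of the 35 named genes kept its direction under each alternative in which it was tested (14 under the strictest filter). They were named for a lack of overlap in these same channels, so leaving out a region could not reverse them. The other alternatives reuse the same channels. Calls were less stable. With scan day as a block 0 genes were called (0 also without overlap), with 3751 at an unadjusted p under 0.05; of the 3 days only 2 hold both sides, which leaves few degrees of freedom. Within the shared days all 35 named genes kept their direction, which lack of overlap implies, with a smallest size of 1.44. The 24-channel fit with region as a random block called 2066 genes without a replicate block (1847 of them without overlap) and 1947 with the replicate block (1779 without overlap); each set held 160 of the 172 genes. Replicate numbers mark dye and dose. After region means were subtracted, same-numbered channels of different regions correlated at -0.14 to 0.28 (median 0.083). Channels of the same dye with another number correlated at -0.16 to 0.36 (median 0.079). These values cannot tell whether channels share animals, which the labels leave unsaid. Above background in all 24 channels, 105 genes were called, and with Cy3 channels only 97, and those counts also had no overlap. Leaving out a replicate gave 113 (without replicate 3) to 161 called genes, the same counts without overlap, and 5394 to 5597 genes without overlap in all. Leaving out a region gave 38 to 141 called genes, the same counts without overlap, and 6845 to 12143 without overlap in all: 38 without cortex, 68 without amygdala, 53 without midbrain, 67 without hypothalamus. In MK-801 RNA 71 genes were called from the high dose arrays alone, against 121. Leaving out a region gave 0 to 181 genes with a differing response at the high dose and 0 to 23 at the low dose. After normexp correction 28 of the 35 named genes stayed called, and with the mean over probes Chrm1 did not. Dim probes, at or below background on the lower side, limit the size of many differences in both directions. Among called genes, 6 had no telencephalic channel well above background and 9 had no midbrain or hypothalamic one.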

Other observations

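Some marker lists varied among the telencephalic regions more than between the sides. All 14 tested genes of striatal projection neurons were highest in ventral striatum. Of these, 2 lay above midbrain and hypothalamus in every telencephalic region, near the 10.0% of all genes. None was called, although the median difference was 1.46. Among 11 markers of projection neurons of cortex or hippocampus, 7 had their top level in hippocampus. Of the 11, 6 lay above in every telencephalic region and 1 was called, against 10.0% and 0.429% of all genes. The median of this list was 2.70. Of 12 microglial genes, 10 were highest in amygdala, where the meningeal genes were highest as well. Of 22 ribosomal protein genes, 4 lay above in every telencephalic region, against 10.0% of all genes. Oligodendrocyte precursor genes followed myelin in part, with 3 of 5 below in every telencephalic region, against 12.7% of all genes. Their median was -0.98, and Pdgfra and Cspg4 overlapped.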
